A study of Rattus norvegicus with 16 samples.

Results

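Sparc, Tnc, Igfbp5, Col3a1, Smoc1 and Mmp2, 6 genes whose proteins build, decorate or cut the extracellular matrix, were followed in rat neural stem and progenitor cells that lost or changed their growth factor. They were chosen by their measured log ratios, as genes that rise or fall over the 4 groups of the study, so their values against the reference and between times are a description and carry no test. Their features were those whose chip annotation gave exactly 1 symbol equal to the gene's, 11 of the 15151 features on the chip. Col3a1 had 4 features, Sparc and Tnc had 2 each, and Igfbp5, Smoc1 and Mmp2 had 1 each. Features of 1 gene were averaged on each array, which left 6 of 6241 named genes among 12559 units tested (a unit being a named gene or a single feature without exactly 1 symbol). All 6 passed the filter on missing values.

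The cells came from the neocortex of Sprague-Dawley rat embryos at day 14.5 and grew as a monolayer in N2 medium on plastic coated with poly-L-ornithine and fibronectin, with FGF-2 at 10 ng/ml. They were then given PDGF-AA at 10 ng/ml daily for 6 d, no factor for 6 d, PDGF-AA for 12 h, or no factor for 12 h, and RNA of FGF-2-treated cells was the common reference. Whether FGF-2 was also present in the PDGF-AA cultures is not spelled out in the labels. Each group had 4 arrays, with the dyes swapped on 2 of them, made from at least 2 RNA preparations. Which arrays share a preparation is not given, so p-values measure only the spread between these arrays, which may be partly technical. The cultures are primary and mixed, and in such bulk RNA fewer cells of a type and less RNA per cell cannot be told apart.

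Values are log2 ratios of sample over FGF-2 reference, as deposited and centred on each array's median. The base is taken as 2, with no source for it, and the direction is likely but not stated. The direction rests on 8 DNA replication genes that lie below 0 in all 4 groups, for instance Top2a at -0.51 in PDGF-AA at 6 d, -1.07 in no factor at 6 d, -1.40 in PDGF-AA at 12 h and -2.49 in no factor at 12 h. Every fold and sign below depends on both. A ratio carries no level, so genes cannot be ranked by abundance here, and the cell type cannot be checked from defining markers.

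Some arrays stood apart. With the dye effect removed, the arrays of PDGF-AA at 6 d correlated with each other between -0.002 and 0.41 over all units, while replicate 4 of that group correlated with the 4 no factor arrays of 6 d between 0.36 and 0.52. It was thus closer to 3 of the 4 arrays of the other treatment than to any array of its own group. This was not particular to replicate 4. Replicate 3 of PDGF-AA was closer to all 4 no factor arrays (0.236 to 0.379) than to its own group (at most 0.164). Replicate 1 was also nearest to a no factor array (0.308, against at most 0.254 in its own group). All arrays share the reference. Whether replicate 4 carries the right label could not be checked here, and the PDGF-AA means and treatment differences of 6 d include it. It is also the only array of its group whose title carries the leading number, of unstated meaning, that 3 of the 4 no factor arrays of 6 d and all 12 h arrays carry. Replicate 1 of PDGF-AA at 6 d had the lowest SD of ratios among the 6 d arrays (0.330 over all features) and replicate 4 of no factor at 6 d the next (0.365), while by median absolute deviation replicate 3 of PDGF-AA was lowest (0.250, against 0.285 and 0.287 on these arrays).

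In the developing cortex the matrix around progenitors is a thin mix of glycoproteins, proteoglycans and basement membrane, with little fibrillar collagen outside the meninges and vessels. Matricellular proteins such as SPARC, tenascin-C and the SMOC proteins sit in that mix and tune adhesion and growth factor signalling more than they bear load. Tenascin-C is known from germinal zones and radial glia, SPARC and IGFBP-5 are secreted by glia among other cells, and MMP-2 is a secreted protease. PDGF-AA acts through the receptor encoded by Pdgfra, known for its part in the oligodendrocyte lineage.

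Sparc, Tnc and Igfbp5 moved together over the arrays, and Smoc1 and Mmp2 went the opposite way at 6 d. Promoters were looked up for all 6 genes, and those found are shown side by side. RefSeq promoters on the rat build GRCr8 were matched for 4 of the 6 genes, and the 250 bases before the annotated start are printed 5′ to 3′ on the gene's strand. The Sparc stretch is chr10:40038817-40039066 on the minus strand, that of Tnc chr5:82476132-82476381 on the minus strand, that of Igfbp5 chr9:81914188-81914437 on the minus strand and that of Smoc1 chr6:106432356-106432605 on the plus strand. Capitals mark matches, on either strand, to 4 motifs: the TATA box TATAAA, the GC box GGGCGG, the AP-1 site TGANTCA and the CCAAT box CCAAT.
Sparc: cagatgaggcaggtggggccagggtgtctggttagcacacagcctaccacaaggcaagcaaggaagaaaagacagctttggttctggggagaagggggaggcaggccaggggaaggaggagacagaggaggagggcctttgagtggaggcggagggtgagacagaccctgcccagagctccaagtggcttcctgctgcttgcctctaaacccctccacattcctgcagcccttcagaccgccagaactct
Tnc: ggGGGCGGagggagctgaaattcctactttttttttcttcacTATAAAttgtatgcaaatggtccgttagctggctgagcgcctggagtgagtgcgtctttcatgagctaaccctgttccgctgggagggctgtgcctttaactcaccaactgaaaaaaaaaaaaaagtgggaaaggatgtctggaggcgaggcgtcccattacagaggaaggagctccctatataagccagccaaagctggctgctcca
Igfbp5: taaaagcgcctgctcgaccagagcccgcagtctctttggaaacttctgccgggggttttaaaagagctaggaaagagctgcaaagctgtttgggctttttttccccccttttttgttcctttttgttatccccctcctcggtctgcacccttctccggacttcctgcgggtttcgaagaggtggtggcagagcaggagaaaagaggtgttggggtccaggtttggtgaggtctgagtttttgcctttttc
Smoc1: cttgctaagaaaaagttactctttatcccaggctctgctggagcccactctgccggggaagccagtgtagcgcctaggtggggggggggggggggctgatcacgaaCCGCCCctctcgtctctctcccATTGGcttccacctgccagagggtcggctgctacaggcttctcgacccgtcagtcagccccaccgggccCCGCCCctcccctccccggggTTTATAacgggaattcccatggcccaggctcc
The Tnc stretch held 1 TATAAA, 208 to 203 bases before the start, and 1 GGGCGG at 248 to 243. Only exact strings were searched, so variants such as the tatataa near the end of the Tnc stretch are not marked. The Smoc1 stretch held, all on the opposite strand, 1 TATAAA at 32 to 27 bases before the start, 2 GGGCGG at 144 to 139 and 53 to 48, and 1 CCAAT at 122 to 118. No match overlapped another, and the Sparc and Igfbp5 stretches held none of the 4 letter strings. Of 33469 rat promoters of this length, 12.9% held TATAAA, 30.5% GGGCGG, 6.34% TGANTCA and 34.02% CCAAT, so 3 of these strings are common. The share of G and C was 60.0% for Sparc, 49.6% for Tnc, 51.6% for Igfbp5 and 64.8% for Smoc1, around a median of 51.2% over all promoters. The genes that moved together thus shared no match to these 4 strings in this window.

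Against FGF-2, 4 of the 6 genes were higher and 2 lower at 6 d, with PDGF-AA and without factor alike. In PDGF-AA at 6 d all 6 were past the threshold (limma, Benjamini-Hochberg adjusted p of 0.05 over all units), where 3.22% of all units were (1.9% higher and 1.32% lower). In no factor at 6 d all 6 were past it as well, beside 13.7% of all units (6.99% higher and 6.73% lower). In PDGF-AA at 12 h 1 gene was past it, Tnc, beside 3.01% of all units (0.661% higher and 2.35% lower), and in no factor at 12 h 3 were, Tnc, Igfbp5 and Smoc1, all higher, beside 11.7% (5.21% higher and 6.48% lower). The genes were picked for such values, so nothing is read from these counts or from the calls of single genes against FGF-2 below.

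**Figure D1:**
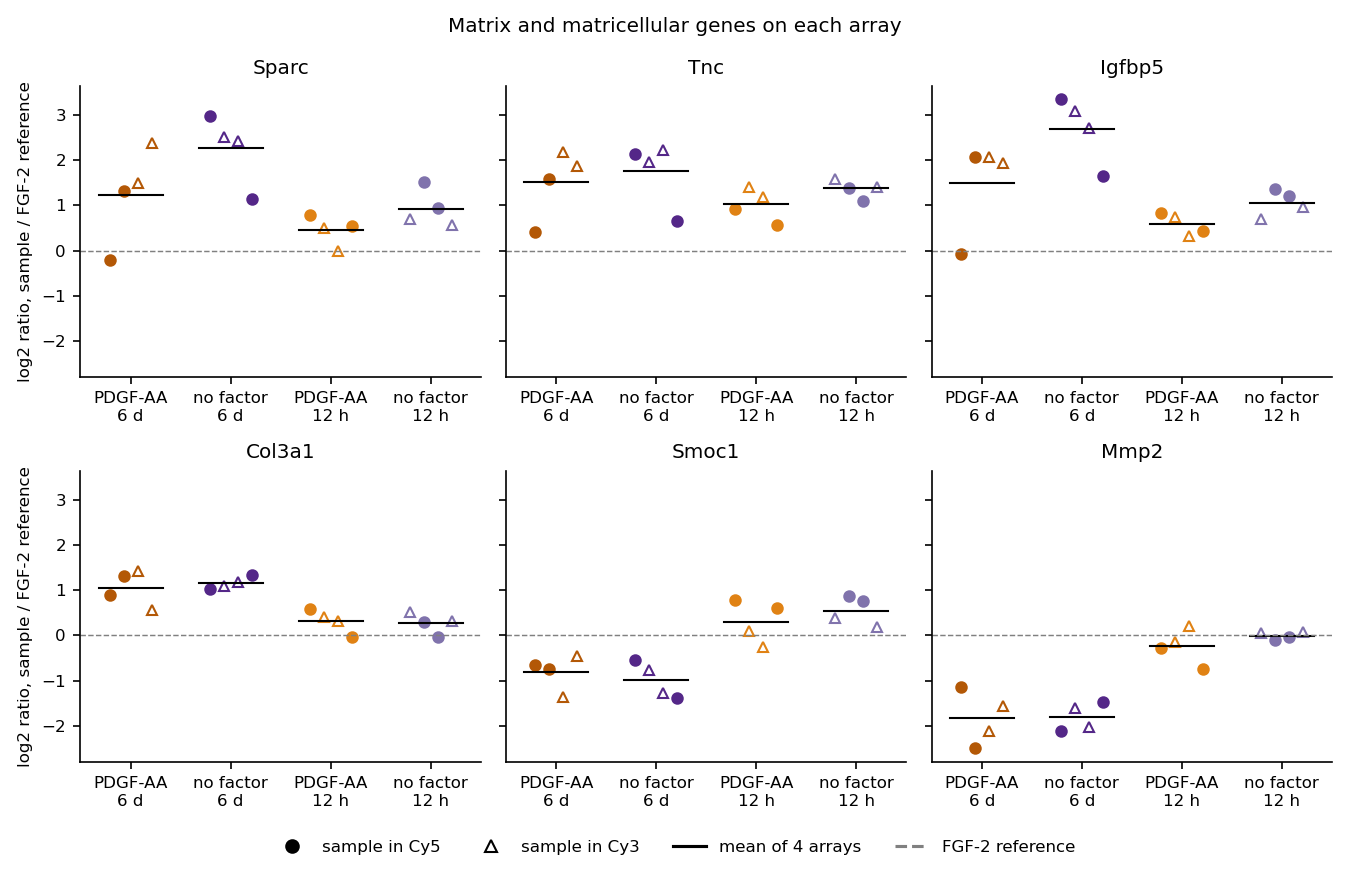
Log2 ratio of sample over FGF-2 reference (y) for each of the 6 genes on each array (points, filled for Cy5 and open for Cy3 samples) in the 4 groups (x), with black lines for the means of 4 arrays and a dashed line at the reference. Sparc, Tnc, Igfbp5 and Col3a1 lie above the line at 6 d except on 1 PDGF-AA array, where Sparc (-0.21) and Igfbp5 (-0.0834) lie just under it, and Smoc1 and Mmp2 lie below it on all 8 arrays of 6 d.

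Sparc encodes a collagen-binding matricellular glycoprotein. Its log2 ratios were -0.21, 1.31, 1.49 and 2.38 in PDGF-AA at 6 d, and 2.99, 2.52, 2.42 and 1.15 in no factor at 6 d. They were 0.79, 0.51, -0.0004 and 0.55 in PDGF-AA at 12 h, and 0.70, 1.53, 0.95 and 0.56 in no factor at 12 h. Replicate 1 of PDGF-AA at 6 d was the only array clearly below the reference, and the ranges of 6 d and 12 h overlapped under both treatments. The means were 1.24 ± 1.07 in PDGF-AA and 2.27 ± 0.79 in no factor at 6 d, and 0.46 ± 0.33 in PDGF-AA and 0.93 ± 0.43 in no factor at 12 h (SD, n = 4 each). In folds these are 2.37, 4.82, 1.38 and 1.91 over FGF-2. The call in PDGF-AA at 6 d was lost without replicate 2, 3 or 4 of that group, replicate 2 of PDGF-AA at 12 h or replicate 3 of no factor at 6 d, and also without the dye term or with a trended, robust prior. The mean was 0.87 without replicate 4 and 1.74 without replicate 1 of that group. The call at 12 h without factor, not made here, was made when replicate 1 or 4 of PDGF-AA at 6 d or replicate 4 of no factor at 6 d was left out. The features H3024A05_1 and H3116A04_1 ran close, at 1.29 and 1.19 in PDGF-AA at 6 d and 2.43 and 2.11 in no factor at 6 d.

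Tnc encodes tenascin-C, a large matricellular glycoprotein of germinal zones. Its ratios were 0.41, 1.59, 2.17 and 1.87 in PDGF-AA at 6 d, and 2.15, 1.97, 2.23 and 0.66 in no factor at 6 d. At 12 h they were 0.93, 1.42, 1.18 and 0.58 in PDGF-AA, and 1.59, 1.40, 1.11 and 1.41 in no factor. All 16 arrays were above the reference, and the ranges of 6 d and 12 h overlapped under both treatments. The means were 1.51 ± 0.77 in PDGF-AA and 1.75 ± 0.73 in no factor at 6 d, and 1.03 ± 0.36 in PDGF-AA and 1.38 ± 0.20 in no factor at 12 h (SD, n = 4 each). Tnc had the highest mean of the 6 genes in both groups of 12 h, with folds over FGF-2 of 2.04 in PDGF-AA and 2.60 in no factor. Its call in PDGF-AA at 12 h was lost without replicate 1 or 2 of that group and without the dye term. Feature H3124C02_1 read higher than H3124A01_1 in every group, for instance 1.98 against 1.04 in PDGF-AA at 6 d and 2.21 against 1.30 in no factor at 6 d.

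Tnc also carried a dye effect. Ratios were lower by 0.63 ± 0.20 (SE) with the sample in Cy5 than in Cy3 (limma adjusted p = 0.0208), a contrast that did not choose the genes. By single feature the dye difference was -0.91 ± 0.24 for H3124C02_1 and only -0.34 ± 0.19 for H3124A01_1 (SE). At 6 d the Cy5 and Cy3 means were 1.00 and 2.02 in PDGF-AA, and 1.41 and 2.10 in no factor, and at 12 h they were 0.75 and 1.30 in PDGF-AA and 1.25 and 1.50 in no factor. The Cy5 mean was lower in all 4 groups. The low arrays of 6 d, replicate 1 of PDGF-AA and replicate 4 of no factor, both had the sample in Cy5. Replicate 2 of PDGF-AA and replicate 1 of no factor at 6 d, also in Cy5, read 1.59 and 2.15. Across all units 39.1% were called for dye (18.9% higher and 20.1% lower in Cy5), and of the other 5 genes none was, Smoc1 being nearest at 0.39 ± 0.16 (SE, limma adjusted p = 0.0576).

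Igfbp5 encodes a secreted protein that binds insulin-like growth factors and also matrix. Its ratios were -0.0834, 2.08, 2.08 and 1.95 in PDGF-AA at 6 d, and 3.35, 3.09, 2.71 and 1.65 in no factor at 6 d. At 12 h they were 0.84, 0.74, 0.33 and 0.43 in PDGF-AA, and 0.70, 1.36, 1.21 and 0.98 in no factor. Without factor the 4 arrays of 6 d lay above the 4 of 12 h, whereas with PDGF-AA the ranges overlapped through replicate 1 alone. The means were 1.51 ± 1.06 in PDGF-AA and 2.70 ± 0.75 in no factor at 6 d, and 0.59 ± 0.24 in PDGF-AA and 1.06 ± 0.29 in no factor at 12 h (SD, n = 4 each). The fold over FGF-2 was 2.84 in PDGF-AA and 6.50 in no factor at 6 d, and the no factor mean was the highest of the 6 genes in any group. The call in PDGF-AA at 6 d was lost without replicate 2 or 4 of that group, and the mean was 2.04 without replicate 1. The call in no factor at 12 h was lost without replicate 2, 3 or 4 of that group and with arrays scaled to 1 spread.

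Col3a1 encodes the chain of type III collagen, a fibrillar collagen of soft connective tissue. Its ratios were 0.89, 1.32, 1.42 and 0.55 in PDGF-AA at 6 d, and 1.03, 1.1016, 1.19 and 1.34 in no factor at 6 d. At 12 h they were 0.58, 0.41, 0.33 and -0.0311 in PDGF-AA, and 0.52, 0.29, -0.0326 and 0.31 in no factor. Without factor the 6 d arrays all lay above those of 12 h, and with PDGF-AA replicate 4 of 6 d fell inside the 12 h range. The means were 1.04 ± 0.40 in PDGF-AA and 1.17 ± 0.13 in no factor at 6 d, and 0.32 ± 0.26 in PDGF-AA and 0.27 ± 0.23 in no factor at 12 h (SD, n = 4 each). Unlike Sparc, Tnc and Igfbp5, it was not lowest on replicate 1 of PDGF-AA or replicate 4 of no factor at 6 d, and replicate 4 of no factor gave the highest value of that group.

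The 4 features of Col3a1 disagreed. H3114H12_1, H3124H10_1 and H3133G03_1 read 1.46, 1.19 and 1.37 in PDGF-AA at 6 d, and 1.72, 1.49 and 1.49 in no factor at 6 d. H3112C07_1 read 0.16 ± 0.34 in PDGF-AA and -0.04 ± 0.35 in no factor at 6 d, and 0.05 ± 0.21 in PDGF-AA and -0.15 ± 0.34 in no factor at 12 h (SD, n = 4 each). It stayed near 0 in all 4 groups, and its own call was lost in both groups of 6 d. Whether that spot reads the same transcript was not tested. Averaged over the other 3 features, Col3a1 was 1.34 ± 0.49 in PDGF-AA and 1.57 ± 0.12 in no factor at 6 d, and 0.41 ± 0.34 in PDGF-AA and 0.41 ± 0.26 in no factor at 12 h (SD, n = 4 each).

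**Figure D2:**
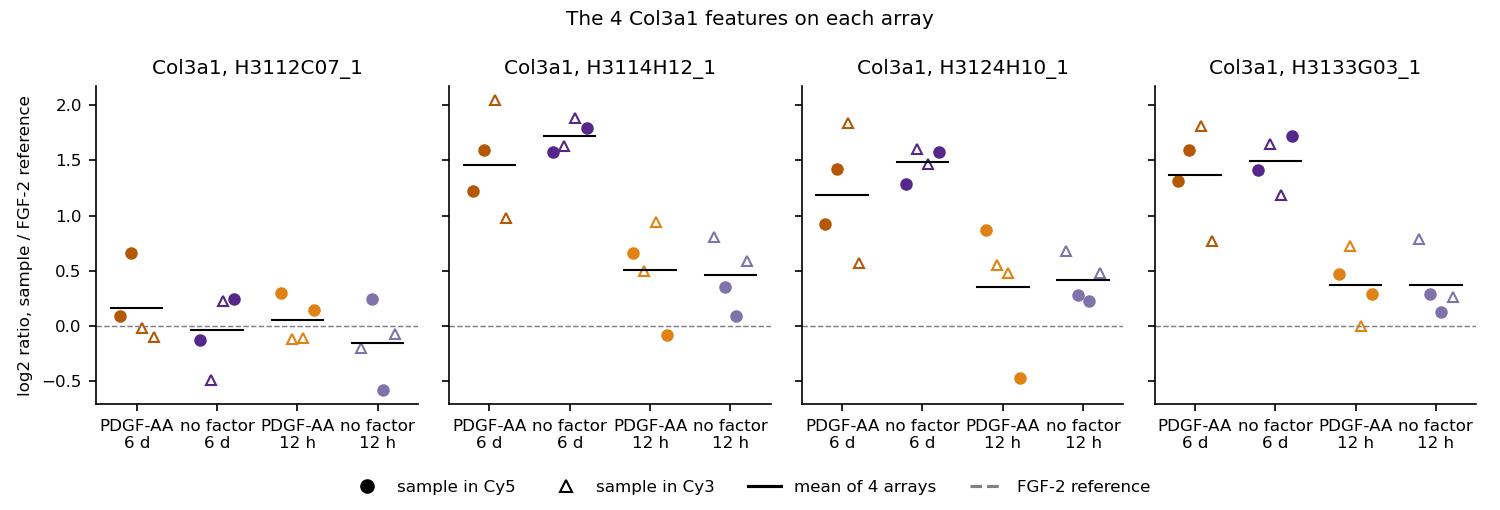
Log2 ratio of sample over FGF-2 reference (y) of each Col3a1 feature on each array (points, filled for Cy5 and open for Cy3 samples) by group (x), with lines for the means of 4 arrays. H3112C07_1 has means between -0.15 and 0.16, while the other 3 features have means of 1.19 to 1.72 at 6 d.

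Smoc1 encodes a SPARC-related calcium-binding protein of basement membranes. Its ratios were -0.66, -0.75, -1.36 and -0.46 in PDGF-AA at 6 d, and -0.54, -0.77, -1.26 and -1.39 in no factor at 6 d. At 12 h they were 0.79, 0.0905, -0.26 and 0.60 in PDGF-AA, and 0.39, 0.87, 0.76 and 0.19 in no factor. All 8 arrays of 6 d were below the reference and below every array of 12 h. The means were -0.81 ± 0.39 in PDGF-AA and -0.99 ± 0.40 in no factor at 6 d, and 0.30 ± 0.48 in PDGF-AA and 0.55 ± 0.32 in no factor at 12 h (SD, n = 4 each). Its mean was thus above FGF-2 at 12 h and below it at 6 d, the one sign change among the 6 genes. The higher call at 12 h without factor was lost when any 1 array of that group was left out, without the dye term and with arrays scaled to 1 spread. The lower call in PDGF-AA at 6 d was lost without replicate 2 of that group.

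Mmp2 encodes gelatinase A, a secreted protease that cuts denatured collagen and basement membrane collagen. Its ratios were -1.14, -2.50, -2.11 and -1.57 in PDGF-AA at 6 d, and -2.10, -1.60, -2.02 and -1.48 in no factor at 6 d. At 12 h they were -0.28, -0.14, 0.20 and -0.73 in PDGF-AA, and 0.0585, -0.11, -0.0448 and 0.067 in no factor. The 8 arrays of 6 d lay below all 8 of 12 h, and the no factor arrays of 12 h lay close to the reference. The means were -1.83 ± 0.60 in PDGF-AA and -1.80 ± 0.30 in no factor at 6 d, and -0.24 ± 0.39 in PDGF-AA and -0.007 ± 0.0848 in no factor at 12 h (SD, n = 4 each). At 6 d its ratio was 0.281 of FGF-2 in PDGF-AA and 0.287 of FGF-2 in no factor. In PDGF-AA at 6 d only Mmp2 of the 6 kept its call with that group's arrays fitted alone, where 28 units were called. With the title number as a term, where 31 units were called, again only Mmp2 kept its call. Mmp2 was picked for such values, so nothing is read from this.

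The genes were also picked for differences between times. Their calls here and in the next paragraphs on times are therefore a description, and nothing is read from them. Between times, Smoc1 and Mmp2 were lower at 6 d than at 12 h by the same threshold under both treatments, beside 1.07% of all units with PDGF-AA (0.637% higher and 0.438% lower) and 1.87% without factor (1.42% higher and 0.454% lower). The difference of 6 d minus 12 h was -1.11 ± 0.22 (SE) for Smoc1 with PDGF-AA and -1.54 ± 0.22 without factor. For Mmp2 it was -1.59 ± 0.25 with PDGF-AA and -1.79 ± 0.25 without factor (SE, n = 4 arrays per group). Col3a1 was past the threshold without factor, at 0.89 ± 0.19, and not with PDGF-AA, at 0.72 ± 0.19. Without its discordant feature it was past the threshold with PDGF-AA too, at 0.93. Igfbp5 differed by 0.92 ± 0.41 with PDGF-AA and by 1.64 ± 0.41 without factor, and Sparc by 0.78 ± 0.44 and 1.34 ± 0.44 in that order, none past it. Tnc, already high at 12 h, differed by 0.48 ± 0.28 with PDGF-AA and 0.38 ± 0.28 without factor, also not past it.

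The Igfbp5, Sparc and Tnc differences between times moved with the arrays that stood apart. Without replicate 1 of PDGF-AA at 6 d, the differences with PDGF-AA were 1.46 for Igfbp5, then past the threshold, and 1.28 for Sparc and 0.77 for Tnc, not past it. Without replicate 4 of PDGF-AA at 6 d they were 0.80, 0.40 and 0.47, none past it. Without replicate 4 of no factor at 6 d, the differences without factor were 1.98 for Igfbp5, then past the threshold, and 1.71 for Sparc and 0.66 for Tnc, not past it. With both low arrays left out, a setting chosen after seeing the data, Igfbp5 (1.49 with PDGF-AA and 2.03 without factor) and Sparc (1.31 and 1.76) were past it under both treatments, and Tnc with PDGF-AA (0.80) but not without factor (0.69). With replicate 4 of both groups of 6 d left out, also chosen after seeing the data, Igfbp5 (1.99) and Sparc (1.75) were past it without factor alone. The unchanged Igfbp5 value without factor, 1.64, was also called in the fit of the no factor arrays alone and when replicate 1 or 2 of PDGF-AA at 6 d was left out, and so was its value of 1.40 among arrays with the title number of the 12 h arrays. Without replicate 1 of no factor at 6 d the Tnc difference without factor was 0.12.

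The Col3a1 call without factor was lost without replicate 2, 3 or 4 of 12 h or replicate 3 or 4 of 6 d, with arrays scaled to 1 spread (0.98), with the title number in the model (0.81), on feature H3112C07_1 (0.12) and with both low arrays left out (0.82). The Smoc1 call with PDGF-AA was lost without replicate 1, 2 or 4 of 12 h or replicate 2 or 3 of 6 d, and without the dye term. The Smoc1 and Mmp2 calls with PDGF-AA were lost when the PDGF-AA arrays were fitted alone, at the same estimates of -1.11 and -1.59, and when the model held that title number, at -0.94 and -1.35. Among arrays with the title number of the 12 h arrays, where PDGF-AA at 6 d is 1 array assumed to vary like the other groups, they were -0.57 and -1.42, not past the threshold.

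PDGF-AA against no factor was a contrast that did not choose the genes, but it uses the same arrays, so it is no independent evidence about them. None of the 6 genes passed the threshold at 6 d or at 12 h, beside 0.00796% of all units (1 unit, 1100 at an unadjusted p under 0.05) at 6 d and 0.0159% (2 units, 681 unadjusted) at 12 h. The arrays of both treatments overlapped for all 6 genes at both times, while 2.66% of units at 6 d and 2.33% at 12 h had no overlap. At 6 d Igfbp5 was lower with PDGF-AA by 1.20 on the log2 scale, with a 95% interval of -2.07 to -0.32 (limma adjusted p = 0.447). Sparc was lower by 1.03, interval -1.96 to -0.0956 (limma adjusted p = 0.536). Both intervals leave out 0 before adjustment over all units, and neither call holds after it.

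The Igfbp5 and Sparc differences at 6 d depended on single arrays. Without replicate 1 of PDGF-AA, the low array, they were -0.66 for Igfbp5 (limma adjusted p = 0.642) and -0.53 for Sparc (limma adjusted p = 0.775). Without replicate 4 of PDGF-AA, the array nearest to no factor, they were -1.32 (limma adjusted p = 0.256) and -1.40 (limma adjusted p = 0.194). Leaving out both low arrays, replicate 1 of PDGF-AA and replicate 4 of no factor, gave -1.01 (limma adjusted p = 0.114) and -0.92 (limma adjusted p = 0.388). Leaving out replicate 4 of both groups gave -1.70 for Igfbp5 (limma adjusted p = 0.0727) and -1.85 for Sparc (limma adjusted p = 0.0218), the one setting in which any of the 6 genes passed. Those array choices were made after the values were seen, and among arrays with the title number of the 12 h arrays, 1 of them PDGF-AA at 6 d, the Sparc difference was 0.36.

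**Figure D3:**
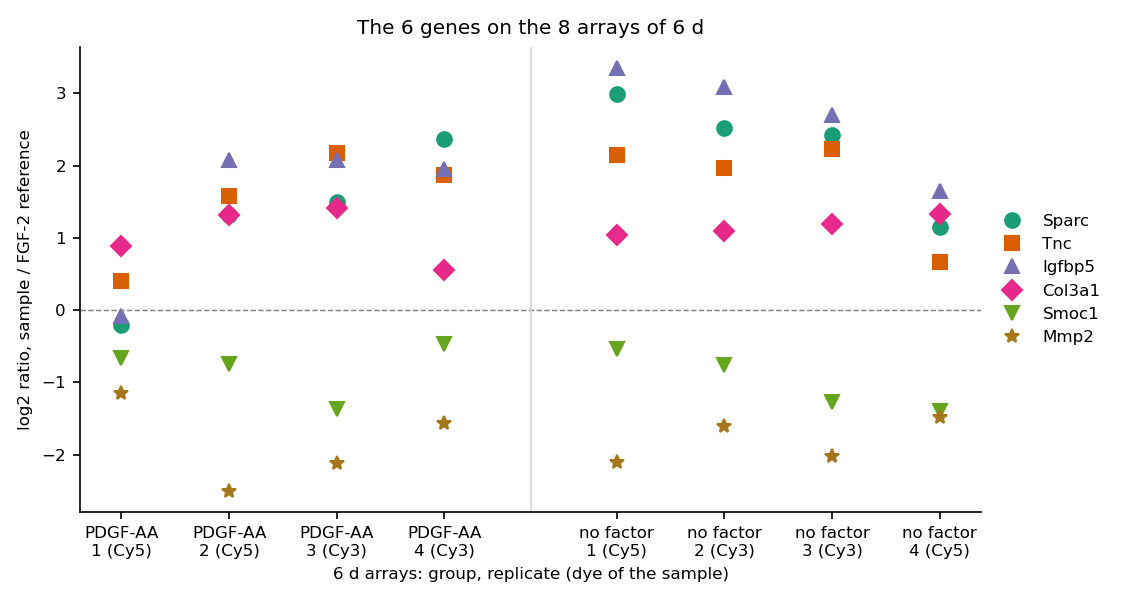
Log2 ratio of sample over FGF-2 reference (y) of the 6 genes (symbols) on the 8 arrays of 6 d (x, with group, replicate and dye of the sample). Sparc, Tnc and Igfbp5 are lowest in their group on replicate 1 of PDGF-AA (-0.21, 0.41 and -0.0834) and on replicate 4 of no factor (1.15, 0.66 and 1.65). Mmp2, which falls, is nearest to the reference in its group on the same arrays (-1.14 and -1.48). Smoc1 is lowest in its group on replicate 4 of no factor alone (-1.39), and Col3a1 on neither.

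For the other genes the treatment difference at 6 d was small with a wide interval. It was -0.24 for Tnc (interval -0.84 to 0.36, limma adjusted p = 0.862) and -0.12 for Col3a1 (interval -0.52 to 0.28, limma adjusted p = 0.911). It was 0.18 for Smoc1 (interval -0.29 to 0.65, limma adjusted p = 0.872) and -0.03 for Mmp2 (interval -0.55 to 0.49, limma adjusted p = 0.989). The Mmp2 interval at 6 d leaves room for a difference of either sign. Its values against FGF-2, -1.83 in PDGF-AA and -1.80 in no factor, chose the gene and are no yardstick for that difference. The sign of these 4 differences changed when single arrays were left out, with Tnc between -0.53 and 0.0433 and Mmp2 between -0.31 and 0.18.

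At 12 h the treatment difference was -0.47 for Sparc (interval -1.40 to 0.46, limma adjusted p = 0.928), -0.47 for Igfbp5 (interval -1.35 to 0.40, limma adjusted p = 0.928) and -0.35 for Tnc (interval -0.95 to 0.25, limma adjusted p = 0.927). It was 0.0489 for Col3a1, -0.25 for Smoc1 and -0.23 for Mmp2, with limma adjusted p-values of 0.991, 0.928 and 0.934. The change of the treatment difference from 12 h to 6 d, as an interaction term, was past the threshold for none of the 6 and for 0 of all units (497 at an unadjusted p under 0.05). It was largest for Igfbp5, at -0.72 ± 0.58 (SE, limma adjusted p = 0.995), and for Sparc, at -0.55 ± 0.62 (SE, limma adjusted p = 0.995).

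**Figure D4:**
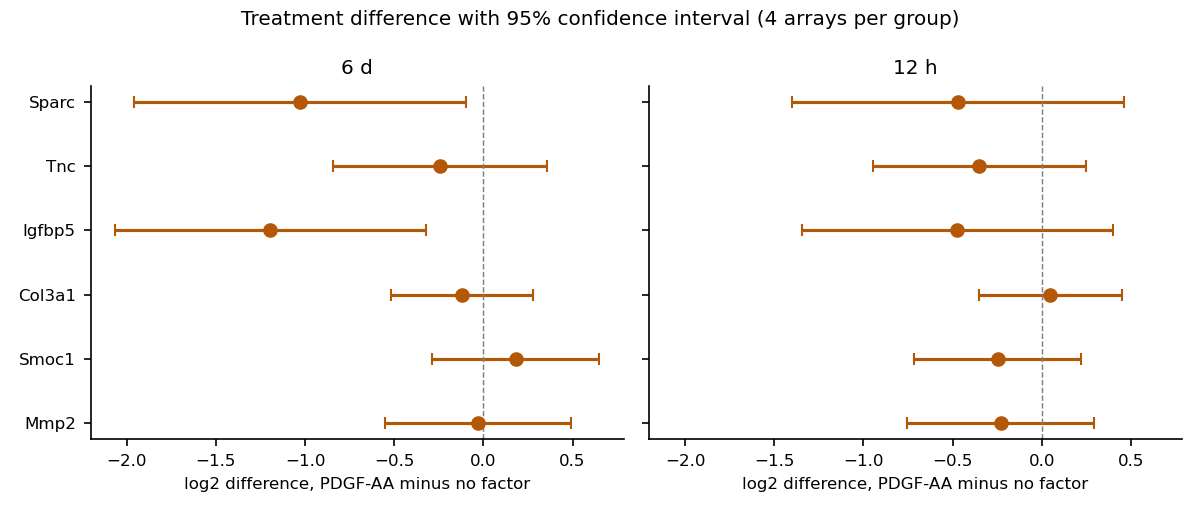
Log2 difference of PDGF-AA minus no factor (x) for the 6 genes (y) at 6 d and at 12 h, with 95% confidence intervals from limma (bars, 4 arrays per group). At 6 d only the intervals of Sparc (-1.96 to -0.0956) and Igfbp5 (-2.07 to -0.32) leave out 0, before adjustment over all units.

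Over the 16 arrays, after removal of the dye effect, the 6 genes fell into a pattern of likeness that is given as a description, since the arrays share the reference and fall into groups. Pearson's r was 0.951 between Sparc and Igfbp5, 0.879 between Tnc and Igfbp5 and 0.865 between Sparc and Tnc. It was 0.842 between Smoc1 and Mmp2, and -0.897 and -0.844 between Col3a1 and each of these 2 genes. Between Col3a1 and Sparc, Tnc or Igfbp5 it was only 0.451 to 0.609. As the average of its 4 features, Col3a1 thus mirrored the falling genes more closely than it followed the other rising ones. The genes were picked as rising or falling over these groups, so the signs of r follow partly from that choice.

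Among all named genes, the 3 most like Sparc over the 16 arrays were Gstm1 (r = 0.986), a glutathione transferase, Cdkn1c (0.953), a cyclin-dependent kinase inhibitor, and Rnf13 (0.953). For Igfbp5 they were Clu (0.969), which encodes the secreted chaperone clusterin, Sparc and Ank (0.945). For Tnc they were Neo1 (0.882), the netrin and RGM receptor neogenin, Igfbp5 and Sparc. Col3a1 was most like Abr (0.945), Ubl3 (0.928) and Strn (0.926). Smoc1 was most like Eif3f (0.959), Tgif2 (0.941) and Cdk4 (0.934), and Mmp2 most like Spred2 (0.921), an inhibitor of ERK signalling, Cst3 (0.918), which encodes cystatin C, and Snrk (0.916). Each of these is the top of a search over 6241 genes, and Clu is also one of the astrocyte markers given below.

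Some markers of other cells moved beside these genes. Their lists were chosen with earlier results of these data known, so their calls are no independent evidence. Over all units 1.9% were called higher and 1.32% lower in PDGF-AA at 6 d, and 6.99% and 6.73% in no factor. At 12 h these shares were 0.661% and 2.35% in PDGF-AA, and 5.21% and 6.48% in no factor. Of 11 astrocyte markers 6 were measured, Slc1a3, Aldoc, Gja1, Glul, Clu and Entpd2, and their mean log2 ratio per array ranged from 0.05 to 1.39 in PDGF-AA at 6 d and from 0.88 to 1.82 in no factor at 6 d. At 12 h it ranged from 0.07 to 0.38 in PDGF-AA and from 0.24 to 0.52 in no factor, and 3, 5, 0 and 1 of the 6 rose in the groups in that order, with 1 falling in no factor at 12 h. Of 12 mesenchymal markers 5 were measured, Dcn, Lum, Pdgfrb, Mgp and Postn, and their mean ranged from -0.07 to 0.49 in PDGF-AA and 0.22 to 0.51 in no factor at 6 d. At 12 h it ranged from -0.34 to 0.28 in PDGF-AA and 0.04 to 0.36 in no factor. Of the 5, 1 rose in PDGF-AA at 6 d, 2 rose and 1 fell in no factor at 6 d, 0 were called in PDGF-AA at 12 h and 1 rose in no factor at 12 h. The 4 microglial markers measured had no call in any group, nor had the 3 endothelial ones. Neural progenitor markers Nes, Vim and Prom1 averaged -0.74 to 0.03 in PDGF-AA and -0.62 to -0.22 in no factor at 6 d, and -0.68 to 0.08 in PDGF-AA and -0.56 to 0.06 in no factor at 12 h, and 1 of the 3 fell in every group but PDGF-AA at 12 h. The 5 neuron markers measured averaged -0.24 to 0.18 in PDGF-AA and 0.19 to 0.46 in no factor at 6 d, with 0 and 2 called higher, and at 12 h 1 rose in PDGF-AA and 2 rose and 1 fell in no factor. Of the oligodendrocyte lineage only Pdgfra was measured, at 0.08 to 2.71 in PDGF-AA and -0.60 to 2.63 in no factor at 6 d, where it was called higher in no factor alone. How far these cells account for the values of the 6 genes was not tested.

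Beyond the 6 genes, 8 lists of matrix genes held 86 measured genes, of which 3 rose and 6 fell in PDGF-AA at 6 d (10.5%), and 17 rose and 9 fell in no factor at 6 d (30.2%). At 12 h 4 rose and 7 fell in PDGF-AA (12.8%), and 10 rose and 8 fell in no factor (20.9%). Single arrays moved these counts, which were 1 without replicate 2 or 5 without replicate 3 of PDGF-AA at 6 d, and 17 without replicate 3 of no factor at 6 d. They were 2, 1 and 5 without replicate 1, 2 and 4 of PDGF-AA at 12 h, and 11 without replicate 3 of no factor at 12 h. The shares of all units called in the same comparisons were 3.22%, 13.7%, 3.01% and 11.7%. These units, unlike the 86 genes, include features without exactly 1 symbol. The lists were chosen with earlier results of these data known, so their shares are no independent evidence. The median of the lists stayed near 0, at -0.008 and 0.06 at 6 d and 0.02 and -0.01 at 12 h in the same order of treatments, close to the medians of all units, which lay between -0.001 and 0.0043. Against each other, PDGF-AA and no factor gave 0 called genes of the 86 at either time. Timp1, Mmp14, Smoc2, Col1a1, Col1a2 and Igfbp2 were not analysed here.

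**Figure D5:**
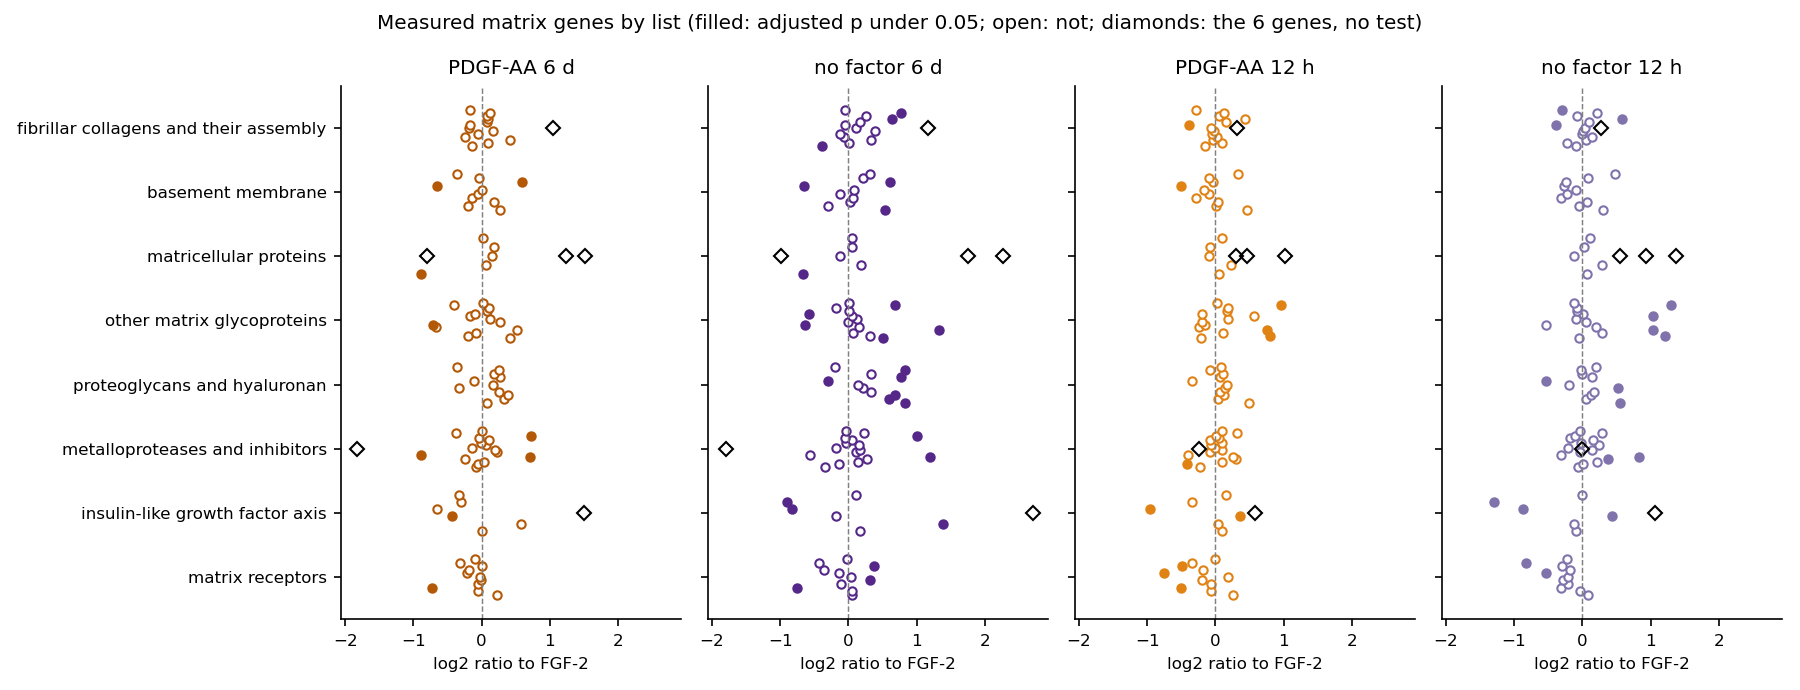
Log2 ratio to FGF-2 (x) of the measured matrix genes in 8 lists (y) for the 4 groups (panels), filled where the limma adjusted p was under 0.05, with open diamonds for the 6 genes. In no factor at 6 d 26 of the 86 other genes are filled, against 9 in PDGF-AA at 6 d, and most genes lie within 1 unit of 0.

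Among the 5 other matricellular genes measured, Sparcl1, the closest relative of Sparc, fell at 6 d while Sparc was higher. It changed by -0.89 ± 0.19 in PDGF-AA (limma adjusted p = 0.015) and -0.66 ± 0.19 in no factor (limma adjusted p = 0.0289), and at 12 h it stood at 0.05 and 0.07 in that order of treatments. None of the other 4 passed in any group. Among 14 other matrix glycoproteins, 0 rose and 1 fell in PDGF-AA and 3 rose and 2 fell in no factor at 6 d, and 3 rose in PDGF-AA and 4 in no factor at 12 h. Mfap4, a microfibril-associated protein, rose in no factor at 6 d by 1.33 ± 0.20 (limma adjusted p = 0.000241), in PDGF-AA at 12 h by 0.75 ± 0.20 (limma adjusted p = 0.0487) and in no factor at 12 h by 1.03 ± 0.20 (limma adjusted p = 0.00211). Mfge8, which encodes the bridging glycoprotein lactadherin, rose by 0.96 in PDGF-AA and by 1.30 in no factor at 12 h (limma adjusted p = 0.0185 and 0.000577), and its difference of 6 d minus 12 h with PDGF-AA was -1.37 ± 0.30 (limma adjusted p = 0.0352). Its 6 d arrays with PDGF-AA read -1.22, -0.91, -0.45 and 0.98, and those without factor 0.88, 1.14, 0.79 and -0.0575. For this gene replicate 4 of PDGF-AA lay among the no factor arrays, whereas for Igf2 it read -0.30, below their 0.88 to 1.92. Fn1, the fibronectin gene, rose by 0.51 ± 0.16 in no factor at 6 d (limma adjusted p = 0.0428), and its value in PDGF-AA at 6 d was 0.42 (limma adjusted p = 0.192).

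Beside Mmp2, 16 genes of metalloproteases and their inhibitors were measured. In PDGF-AA at 6 d 2 rose and 1 fell, in no factor at 6 d 2 rose, in PDGF-AA at 12 h 1 fell (Mmp9, -0.41 ± 0.10, limma adjusted p = 0.033), and in no factor at 12 h 2 rose. Timp3, an inhibitor of metalloproteases that binds the matrix, rose by 0.71 ± 0.18 in PDGF-AA (limma adjusted p = 0.0424) and by 1.20 ± 0.18 in no factor (limma adjusted p = 0.000315) at 6 d, and by 0.83 ± 0.18 in no factor at 12 h (limma adjusted p = 0.00641). Its 6 d arrays with PDGF-AA read -0.0853, 0.46, 0.47 and 2.01, the high one being replicate 4. Adamts4, a protease of proteoglycans, rose by 0.72 ± 0.15 in PDGF-AA and 1.00 ± 0.15 in no factor at 6 d (limma adjusted p = 0.0125 and 0.000282). Timp4 changed by -0.89 ± 0.18 in PDGF-AA at 6 d (limma adjusted p = 0.0106). Timp2, which takes part in activating pro-MMP-2, rose by 0.38 ± 0.10 in no factor at 12 h (limma adjusted p = 0.0211) and stood at -0.24 in PDGF-AA and 0.27 in no factor at 6 d, neither past the threshold. Genes of this family were thus called in both directions, and none of the 16 differed between PDGF-AA and no factor past the threshold.

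In the insulin-like growth factor axis 6 genes were measured beside Igfbp5. Igfbp3 and Igfbp4, the other binding proteins measured, lay below FGF-2 where Igfbp5 lay above it. In PDGF-AA Igfbp4 was past the threshold at neither time, and Igfbp3 was not past it at 6 d. Igfbp4 changed by -0.90 ± 0.15 in no factor at 6 d (limma adjusted p = 0.000468) and -1.30 ± 0.15 in no factor at 12 h (limma adjusted p = 1.95e-05), and stood at -0.31 and -0.35 in PDGF-AA at 6 d and 12 h. Igfbp3 changed by -0.83 ± 0.20 in no factor at 6 d, -0.95 ± 0.20 in PDGF-AA at 12 h and -0.87 ± 0.20 in no factor at 12 h (limma adjusted p = 0.00928, 0.0139 and 0.00845), and stood at -0.65 in PDGF-AA at 6 d (limma adjusted p = 0.0944). The ligand gene Igf2 rose by 1.38 ± 0.20 in no factor at 6 d (limma adjusted p = 0.000215), where its arrays read 1.50, 1.92, 0.88 and 1.23. It stood at 0.58 in PDGF-AA at 6 d, and its difference of 6 d minus 12 h without factor was 1.50 ± 0.29 (limma adjusted p = 0.0106). Igf2r, the receptor that clears that ligand, was 0.43 below FGF-2 in PDGF-AA at 6 d (-0.43 ± 0.10, limma adjusted p = 0.0196) and above it at 12 h, by 0.37 in PDGF-AA and 0.43 in no factor (limma adjusted p = 0.0488 and 0.00641).

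Among 13 other genes of fibrillar collagens and their assembly, 0 were called in PDGF-AA and 2 rose and 1 fell in no factor at 6 d. At 12 h 1 fell in PDGF-AA, and 1 rose and 2 fell in no factor. Those that rose without factor at 6 d were P3h3, a collagen prolyl hydroxylase (0.77 ± 0.14, limma adjusted p = 0.00142), and Bmp1, the procollagen C-proteinase (0.64 ± 0.12, limma adjusted p = 0.0016), while the collagen chain Col5a3 changed by -0.39 ± 0.10 (limma adjusted p = 0.0155). No other collagen chain of that list was called higher at 6 d. In the basement membrane list of 10, 1 rose and 1 fell in PDGF-AA and 2 rose and 1 fell in no factor at 6 d. The collagen chain Col4a5 of this list rose in no factor at 6 d by 0.53 ± 0.15 (limma adjusted p = 0.0268). Nid1 and Nid2, which encode the nidogens that link laminin to type IV collagen, moved in opposite directions. Nid1 changed by -0.65 ± 0.10 in PDGF-AA and -0.65 ± 0.10 in no factor at 6 d (limma adjusted p = 0.00134 and 0.000446), and Nid2 by 0.60 ± 0.13 in both (limma adjusted p = 0.015 and 0.00381).

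Of 11 proteoglycan and hyaluronan genes 0 were called in PDGF-AA, and 5 rose and 1 fell in no factor at 6 d. At 12 h 0 were called in PDGF-AA, and 2 rose and 1 fell in no factor. Sdc4 and Sdc2, cell surface syndecans, rose without factor at 6 d by 0.83 ± 0.14 and 0.77 ± 0.12, and the proteoglycan gene Vcan by 0.82 ± 0.16 (limma adjusted p = 0.000819, 0.000288 and 0.00188). In PDGF-AA at 6 d Sdc4, Sdc2 and Vcan stood at 0.25, 0.27 and 0.07, and none of their treatment differences passed the threshold. Of 11 matrix receptor genes 1 fell in PDGF-AA and 2 rose and 1 fell in no factor at 6 d, and 3 fell in each group of 12 h. Itga6, a laminin receptor subunit, changed by -0.72 ± 0.13 in PDGF-AA and -0.76 ± 0.13 in no factor at 6 d (limma adjusted p = 0.00386 and 0.000676). Itgb5, an integrin subunit that pairs with the alpha v chain, changed by -0.76 ± 0.10 in PDGF-AA and -0.53 ± 0.10 in no factor at 12 h (limma adjusted p = 0.000912 and 0.00221).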

How the data were processed

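Per the labels, 40 µg of total RNA of each sample and of FGF-2-treated cells were labelled with Cy3 or Cy5 and hybridised to mouse cDNA chips, so rat RNA was read on mouse sequence. The deposited table holds 1 log ratio per feature and array, taken as log2, and 1 of 15151 features was missing on some arrays. The authors' background correction, normalization and spot filters are not given in the sources used here. Without spot intensities the signal over background of a feature is unknown, and precision is limited by how many arrays there were. The reference is treated as 1 control sample, and its own spread is left out.

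Arrays were centred on their median (deposited medians -0.0053 to 0.0387), features of 1 symbol in the mouse chip annotation averaged per array, and units with values on at least 3 arrays per group fitted with limma 3.58.1 in R 4.3.3: a coefficient per group over all 16 arrays and a dye term, empirical Bayes moderation, two-sided tests, Benjamini-Hochberg adjustment over 12559 units at 0.05. The steps were tested on simulated data. Replicate numbers follow deposition order and pair nothing. The 6 genes, the matrix lists and the marker lists were chosen with earlier results of these data known, so their calls are no independent evidence. Named genes outside the 6 are up to 3 per matrix list and contrast with the largest change past the threshold, a fixed set of 12, and the 3 genes most like each of the 6 by Pearson's r. Alternatives covered the dye term, centring, scaling of array spread, the arrays fitted, single features, the missing value filter, the title number, the moderation and each array left out. Columns of no sample were not met (0 unused).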

Additional observations from a re-analysis of the deposited data

Results flagged for a closer look

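Of 24 sets of 4 arrays (6 genes in 4 groups), 2 held an array whose gap to its nearest neighbour took up more of the range than Dixon's 95% critical value, where chance flags about 1 in 20 such sets. Igfbp5 on replicate 1 of PDGF-AA at 6 d read -0.0834 against 1.95 to 2.08 on the other 3 arrays, a gap of 0.940 of the range. Tnc on replicate 4 of no factor at 6 d read 0.66 against 1.97 to 2.23 on the other 3, a gap of 0.831 of the range. Sparc was also lowest in its group on both arrays, at -0.21 and 1.15, without passing that value. Both arrays had the sample in Cy5, as had replicate 2 of PDGF-AA and replicate 1 of no factor at 6 d. Both flagged arrays had the lowest SD of ratios at 6 d, though not the lowest median absolute deviation. With the fitted dye effect removed, the Tnc arrays read 2.46, 1.65, 1.92 and 0.98 and the gap was 0.455 of the range, under Dixon's critical value. The Igfbp5 gap was then 0.840, still above it. The part of array spread was not tested.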

How the results depend on the processing

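No paired analysis was possible because replicate numbers follow deposition order and the labels give none that groups share. Called units against FGF-2 numbered 404 in PDGF-AA and 1723 in no factor at 6 d, and 378 in PDGF-AA and 1468 in no factor at 12 h. Called genes of the 86 listed matrix genes numbered 9, 26, 11 and 18 in that order, and units that differed between PDGF-AA and no factor 1 at 6 d and 2 at 12 h. With 1 array left out at a time, the units ranged over 157 to 461, 1012 to 1802, 76 to 489 and 740 to 1564, the matrix genes over 1 to 10, 17 to 29, 1 to 13 and 11 to 19, and the treatment differences over 1 to 58 at 6 d and 0 to 8 at 12 h. The 58 came without replicate 4 of PDGF-AA at 6 d. Without the dye term the units were 191, 990, 156 and 830, the matrix genes 5 in PDGF-AA at 6 d and 4 at 12 h, and the treatment differences 0 and 0. After scaling of the arrays to 1 median absolute deviation 622 units were called in PDGF-AA at 6 d, and 2 and 0 differed between treatments. With the arrays of the compared groups alone PDGF-AA at 6 d had 28 units and 0 matrix genes, PDGF-AA at 12 h 6 matrix genes, and the treatments 0 and 25 units. With the title number as a term PDGF-AA at 6 d had 31 units and 0 matrix genes. With the arrays that carry the title number of the 12 h arrays alone it had 175 units and 3 matrix genes, no factor at 6 d had 1132 units, and 18 units differed at 12 h. With a trended, robust prior 0 differed at 12 h. Of the settings chosen after seeing the data, leaving out replicate 1 of PDGF-AA and replicate 4 of no factor gave 2 and 10 differing units, and leaving out replicate 4 of both gave 229 and 9, with 239 units called in PDGF-AA at 6 d. Centring and the missing value filter moved no count by over 1.5 times. Some treatment differences changed sign. At 6 d these were Col3a1 at 0.0283 with scaled arrays, at 0.20 by feature H3112C07_1 and at 0.17 without both replicate 4 arrays, Mmp2 at 0.13 with the title term, 0.0747 with arrays of that number alone and 0.0567 without both replicate 4 arrays, Smoc1 at -0.0013 without the 2 low arrays and -0.27 without both replicate 4 arrays, and Sparc, -1.03 over all arrays, at 0.36 and Tnc at 0.031 with arrays of that number alone. At 12 h Col3a1 was -0.0589 by feature H3124H10_1 and -0.0029 without H3112C07_1. With single arrays left out the 6 d differences of Tnc ranged from -0.53 to 0.0433, Col3a1 from -0.25 to 0.0679, Smoc1 from -0.0345 to 0.34 and Mmp2 from -0.31 to 0.18, and that of Col3a1 at 12 h from -0.0544 to 0.17. Against FGF-2, Col3a1 by H3112C07_1 was -0.0375 in no factor at 6 d, and the other called values of the 6 genes kept their sign under every setting run. Causes were not tested.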
